A study of Homo sapiens with 6 samples.

Results

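The genes described here are the DNA replication machinery and the enzymes that supply its nucleotides, 45 genes chosen by name and found by their symbols among the 19184 genes of an expression array. They were read in KYSE30, an established cell line from a human oesophageal squamous cell carcinoma. Per the labels, 3 samples (numbers 4, 5 and 6) received an siRNA against MTA2, whose protein belongs to NuRD, a chromatin remodeller that also removes histone acetyl groups, and 3 samples (numbers 1, 2 and 3) a negative control siRNA. All 6 were transfected with Lipofectamine for 48 h at a dose printed in the labels as 20 nmol/ml, and total RNA was hybridised to NimbleGen arrays. The design text names the comparison of MTA2 siRNA with control siRNA, and the question asked of the 45 genes is how they differ between those groups. Only 1 siRNA against MTA2 and 1 cell line were used. The labels do not state that samples of 1 group were separate cultures, so the spread behind each p-value may be technical. Where bulk RNA differs, fewer cells of a kind and less RNA per cell cannot be told apart.

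Chromosomes are copied once per cell cycle. In G1 the origin recognition complex (ORC), CDC6 and CDT1 load the ring of MCM2 to MCM7 onto origins, a step called licensing, and geminin (GMNN) blocks CDT1 afterwards. In S phase MCM10, CDC45 and GINS turn the ring into an active helicase, polymerases and primase copy the strands behind the PCNA clamp and its RFC loader, and ribonucleotide reductase, thymidylate synthase and thymidine kinase supply the building blocks. Many of these genes are transcribed at the G1/S transition by E2F factors, which the retinoblastoma protein holds in check, and they are often high in carcinoma cells that divide quickly.

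The siRNA strands are shown because they define the groups; capitals mark bases 2 to 8 of the antisense strand, the seed, and each duplex pairs over 19 bases.
MTA2 siRNA, sense: ggugggagauuacgucuautt
MTA2 siRNA, antisense: aUAGACGUaaucucccacctt
Control siRNA, sense: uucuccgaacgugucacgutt
Control siRNA, antisense: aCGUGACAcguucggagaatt

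Values are log2 intensities as the authors deposited them, and a difference is MTA2 siRNA minus control siRNA on that scale, so that -1 is a halving of intensity. MTA2, the targeted gene, did not read lower in the samples labelled with its siRNA. Its row read 13.12, 13.18 and 13.52 in them, against 12.92, 13.13 and 13.00 in control siRNA samples. The difference was 0.26, with a 95% interval of -0.16 to 0.67 (limma adjusted p = 0.942). All directions below therefore concern the samples as labelled. The label field gives Cy5 for MTA2 siRNA samples 4 and 6 and control sample 2, and Cy3 for MTA2 siRNA sample 5 and control samples 1 and 3. The label protocol names a one-colour kit, so what the dye field stands for is uncertain, and it is used here only as the labels state it. As stated, dye is crossed with siRNA but unevenly, and between dyes 67 of all genes (0.349%) had a limma adjusted p under 0.05. Rows under 5 on the log2 scale numbered 271, 29 and 79 in MTA2 siRNA samples 4, 5 and 6 and 375, 87 and 80 in control samples 1, 2 and 3. Squamous markers averaged 11.69 to 11.83 in MTA2 siRNA samples and 11.85 to 11.97 in control siRNA samples. By gene, 6 of these 11 markers lay below 0, with differences from -0.61 to 0.20 and a median of -0.006. The groups overlapped in each of the 11. Endothelial markers, which a carcinoma line should lack, averaged 12.31 to 12.38 in MTA2 siRNA samples and 12.20 to 12.35 in control siRNA samples. Levels of different rows cannot be set against each other as amounts of RNA, and no detection call was used. These values therefore do not check the labelled cell type, and dim or bright below refers to array signal only. Of the 31 marker genes, 0 passed the test, and the smallest p belonged to the liver marker APOA1 (-0.63), the T cell marker CD3E (-0.77) and the liver marker TTR (-0.31). CD3E differed by 0.16 within Cy3 and by -1.28 within Cy5. Their part in the results below was not tested.

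No replication gene passed the test between siRNA groups. Of the 45 members, 0 had a limma adjusted p under 0.05 over all genes (0.0% of all genes were called), and the lowest adjusted p was 0.942. Unadjusted, 2 members had a limma p under 0.05, ORC3 and RRM1, both lower in samples labelled MTA2 siRNA; 3.76% of all genes passed that threshold, 2.0% lower and 1.76% higher. In 5 members the groups did not overlap, 2 higher (ORC2, ORC4) and 3 lower (ORC3, RFC5, RRM1), where 9.48% of all genes did not overlap, 5.47% higher and 4.01% lower. In an exact permutation test each of these 5 gave p = 0.10, two-sided, the smallest that 3 samples against 3 allow.

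By sign, 28 members differed below 0 and 17 above, against 45.5% of all genes below 0. The members' median difference was -0.093, beside a median of 0.029 over all genes. Within the Cy5 samples 28 members lay below 0 with a median of -0.076, but within the Cy3 samples 21 did with a median of 0.016, so the lower median did not hold in both dyes. In each of the 6 classes below, the median within Cy3 had the sign opposite to that of the whole. The array limited what could be seen to sizeable changes. For 38 of the 45 members (84.4%) the 95% interval excluded changes of more than 2-fold, up or down, beside 78.8% of all genes. For 13 members (28.9%) it excluded changes of more than 1.5-fold, beside 30.2% of all genes. These intervals are per gene and unadjusted. The 7 members whose interval did not exclude a 2-fold change were MCM4, MCM6, GINS1, RFC2, LIG1, RRM1 and RRM2. Each of their intervals reached below -1. The median standard error was 0.20 for the members and 0.22 for all genes.

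**Figure D1:**
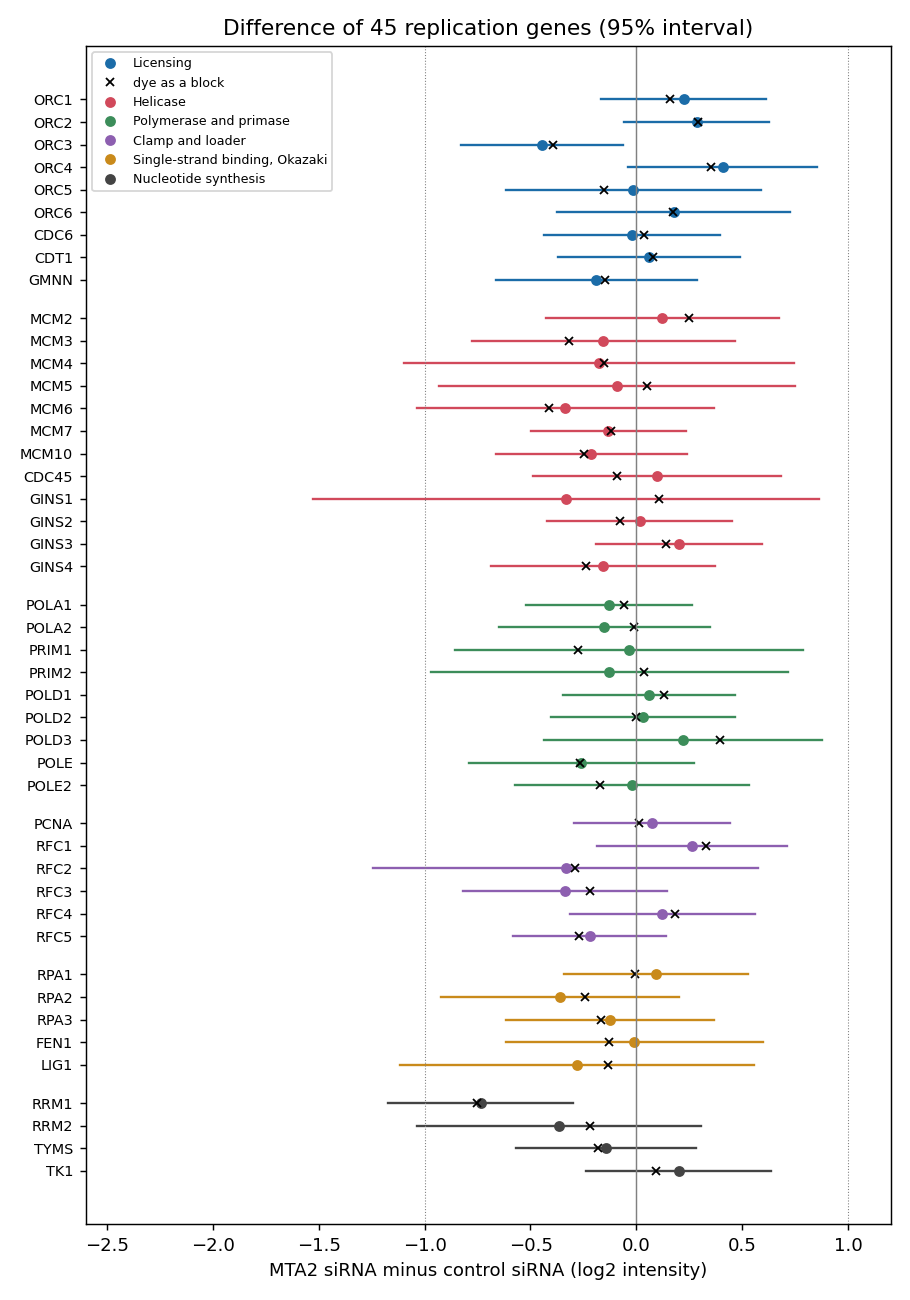
Difference between MTA2 siRNA and control siRNA samples (log2 intensity, x axis) for the 45 genes by class, with the 95% interval of the limma fit; crosses give the difference with dye as a block and dotted lines mark a 2-fold change. All intervals except those of ORC3 and RRM1 cross 0, and no gene passed an adjusted p of 0.05.

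Among the licensing genes, the ORC subunits did not differ in 1 direction. ORC3 read lower and ORC2 and ORC4 read higher in the samples labelled MTA2 siRNA, and of the 9 genes of the class 4 lay below 0 and 5 above, with a median of 0.059. The ORC binds replication origins and stays there as the platform for licensing.

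ORC3, a core subunit of that complex, read 9.64, 9.85 and 9.83 in MTA2 siRNA samples, against 10.39, 10.10 and 10.16 in control siRNA samples. All MTA2 siRNA samples lay below all controls. The means were 9.77 ± 0.12 in MTA2 siRNA samples and 10.22 ± 0.15 in control siRNA samples (SD, n = 3 each). The difference was -0.44 (SE 0.16) (interval -0.83 to -0.06), or 0.735 times the control level. It was -0.42 within Cy3, -0.37 within Cy5 and -0.40 with dye as a block, and it stayed between -0.50 and -0.36 with each sample left out. All 3 of its rows were lower, by -0.25, -0.36 and -0.73.

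ORC2, another core subunit, read 10.23, 10.28 and 10.29 in MTA2 siRNA samples, against 10.08, 9.97 and 9.90 in control siRNA samples. The groups did not overlap, and the difference of 0.28 (interval -0.06 to 0.63) was 0.29 within either dye. ORC4, an ATPase subunit, read 8.64, 8.71 and 9.02 in MTA2 siRNA samples, against 8.14, 8.52 and 8.48 in control siRNA samples. Its difference was 0.41 (interval -0.04 to 0.85), and again every MTA2 siRNA sample lay above every control. The 6 rows of ORC4 were all higher, 5 of them by 0.16 to 0.34 and 1 by 1.10. That last row read 5.77 in control sample 1 and 8.96 to 9.33 elsewhere. In each of the 6 rows taken singly the groups overlapped. Whether the averages would separate without the row that read 5.77 was not tested. All 6 rows are dim, within the lowest 16.2% of array rows by mean.

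ORC1, a subunit that binds and hydrolyses ATP and cycles with G1, read 13.99, 13.94 and 13.98 in MTA2 siRNA samples, against 13.64, 13.98 and 13.62 in control siRNA samples. Control sample 2, the Cy5 control, lay with the MTA2 siRNA samples, and the difference of 0.22 was 0.31 within Cy3 and 0.01 within Cy5. ORC6, the smallest subunit, read 15.99, 15.49 and 15.99 in MTA2 siRNA samples, against 15.67, 15.33 and 15.95 in control siRNA samples. These values lie at the top of the deposited scale, whose highest value is 15.996, so a higher level could not have been read and the difference of 0.18 is not exact. ORC6 differed by -0.32 within Cy3 and by 0.67 within Cy5. ORC5 differed by -0.01 (interval -0.62 to 0.59). Its 2 rows, both within the lowest 7.73% of array rows by mean, differed by 0.12 and -0.15.

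The loading factors differed by little. CDC6, the ATPase that joins ORC to recruit the MCM ring, read 11.78, 12.04 and 12.13 in MTA2 siRNA samples, against 12.17, 11.83 and 12.01 in control siRNA samples, a difference of -0.02 (interval -0.43 to 0.40). CDT1, which brings the MCM ring to ORC, averaged 13.23 ± 0.21 in MTA2 siRNA samples and 13.17 ± 0.17 in control siRNA samples, a difference of 0.06 with an interval of -0.37 to 0.49. Geminin, the CDT1 inhibitor, differed by -0.19 in the average of 4 rows (interval -0.66 to 0.29), by -0.48 within Cy3 and by 0.19 within Cy5. Its rows went both ways, from -0.79 to 0.38.

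**Figure D2:**
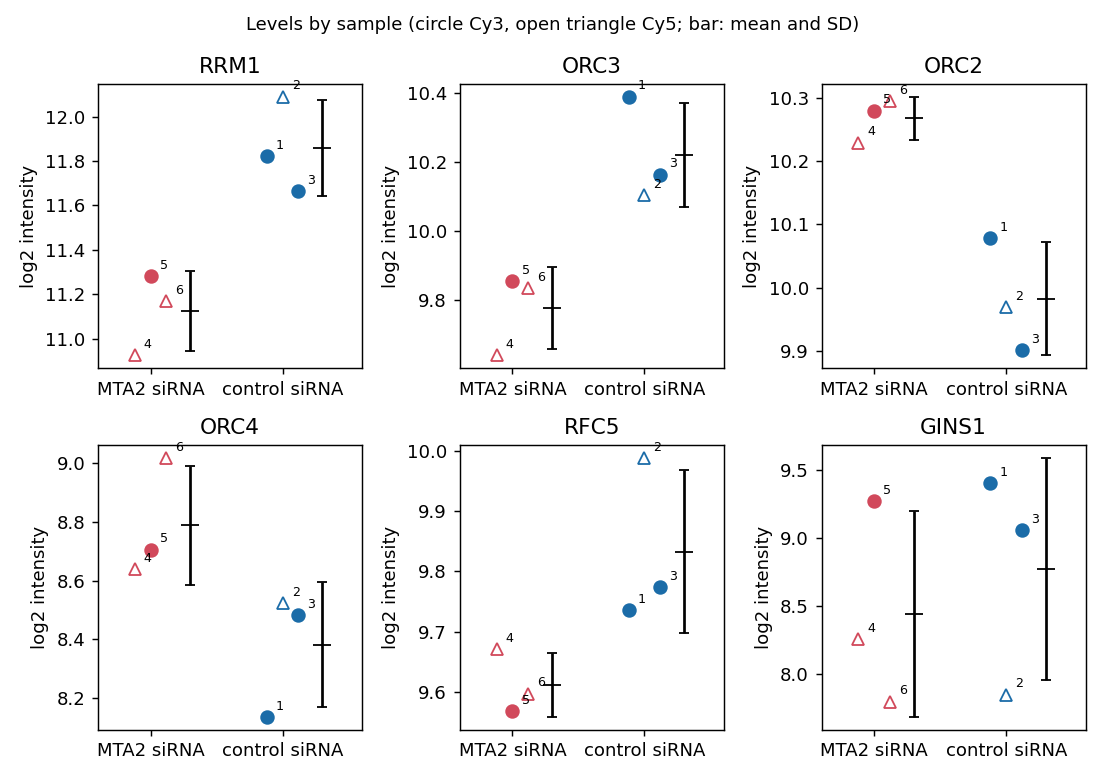
Log2 intensity (y axis) in each sample for RRM1, ORC3, ORC2, ORC4, RFC5 and GINS1, with MTA2 siRNA samples at left and control siRNA samples at right; numbers are sample numbers, filled circles Cy3, open triangles Cy5, and the bar gives the mean and SD of 3 samples. The groups do not overlap in the first 5 genes, while in GINS1 the Cy3 samples of both groups lie between 9.06 and 9.41 and the Cy5 samples between 7.80 and 8.26.

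In the helicase class 8 of 12 genes lay below 0 and 4 above, with a median of -0.14, and 0 had an unadjusted p under 0.05. Of the ring subunits MCM2 to MCM7, 5 of 6 lay below 0, with differences from -0.34 to 0.12. The dyes did not agree on this. Within Cy5 all 6 lay below 0, from -0.78 to -0.04. Within Cy3 the differences were 0.54 for MCM2, -0.09 for MCM3, 0.10 for MCM4, 0.43 for MCM5, -0.05 for MCM6 and 0.02 for MCM7. MCM6 read 11.94, 11.62 and 11.04 in MTA2 siRNA samples, against 11.47, 12.27 and 11.87 in control siRNA samples. The groups overlapped, and the difference of -0.34 (interval -1.04 to 0.37) was -0.05 within Cy3 and -0.78 within Cy5. Without control sample 2 it was -0.14, and without MTA2 siRNA sample 6 it was -0.09.

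MCM2 read 11.49, 12.32 and 11.80 in MTA2 siRNA samples, against 11.72, 11.69 and 11.84 in control siRNA samples. The highest and the lowest reading both belonged to MTA2 siRNA samples, and the difference was 0.12. MCM3 differed by -0.16, MCM4 by -0.18, MCM5 by -0.09 and MCM7 by -0.13. MCM5 read 9.95 in MTA2 siRNA sample 6 and 10.79 to 11.34 in the other 5 samples, and without that sample its difference was 0.33. MCM7 averaged 10.15 ± 0.11 in MTA2 siRNA samples and 10.28 ± 0.11 in control siRNA samples. Its interval of -0.50 to 0.23 was the narrowest of the ring subunits. That interval is for an average of 3 rows that went both ways, at -0.11, 0.18 and -0.47. The 2 rows of MCM4 also went both ways, at 0.12 and -0.47.

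The factors that activate the ring likewise overlapped between groups. MCM10, which helps to open the origin, read 9.66, 9.48 and 10.02 in MTA2 siRNA samples, against 9.89, 9.83 and 10.08 in control siRNA samples. The difference of -0.21 (interval -0.66 to 0.24) was -0.51 within Cy3 and 0.01 within Cy5. CDC45, part of the active helicase, differed by 0.10 (interval -0.49 to 0.68), but -0.09 in the fit with a dye block. GINS3 read 12.54, 12.21 and 12.52 in MTA2 siRNA samples, against 12.28, 12.26 and 12.12 in control siRNA samples. Its difference was 0.20 (interval -0.19 to 0.59), and 0.01 within Cy3. GINS2 differed by 0.02 and GINS4 by -0.16.

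GINS1, a further subunit of the GINS complex, separated by dye rather than by siRNA. It read 8.26, 9.28 and 7.80 in MTA2 siRNA samples, against 9.41, 7.85 and 9.06 in control siRNA samples. The 3 Cy5 samples lay below the 3 Cy3 samples, at -1.32 for Cy5 minus Cy3 (limma adjusted p = 0.0905), which did not pass the test. The siRNA difference was -0.33 (interval -1.52 to 0.86) without dye in the fit and 0.11 with dye as a block.

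For the polymerases and primase, 6 of 9 genes lay below 0, with a median of -0.035, and 0 had an unadjusted p under 0.05. All 4 genes of polymerase alpha and primase, which lay down the RNA-DNA primers, lay slightly below 0, at -0.13 for POLA1, -0.15 for POLA2, -0.04 for PRIM1 and -0.13 for PRIM2, which was 0.03 with dye as a block. POLA1, the catalytic subunit, read 9.58, 9.77 and 9.65 in MTA2 siRNA samples, against 9.98, 9.61 and 9.79 in control siRNA samples. The groups overlapped, and the difference was -0.06 with dye as a block and 0.00 within Cy5. PRIM2, the large primase subunit, read 12.21, 13.44 and 12.25 in MTA2 siRNA samples, against 12.92, 12.92 and 12.44 in control siRNA samples. It differed by 0.76 within Cy3 and by -0.69 within Cy5, and an interaction of siRNA with dye had an unadjusted limma p of 0.0164 and an adjusted p of 1.00.

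The leading strand polymerase epsilon gave -0.26 for its catalytic subunit POLE and -0.02 for POLE2. POLE read 11.64, 12.02 and 11.66 in MTA2 siRNA samples, against 11.65, 12.31 and 12.15 in control siRNA samples. The low control was sample 1, a Cy3 sample, and the difference was 0.12 within Cy3 and -0.66 within Cy5. The lagging strand polymerase delta gave 0.06 for POLD1, 0.03 for POLD2 and 0.22 for POLD3. POLD3 read 7.43, 8.49 and 7.93 in MTA2 siRNA samples, against 7.78, 7.56 and 7.86 in control siRNA samples. Its difference (interval -0.44 to 0.88) was 0.40 with dye as a block and -0.05 without MTA2 siRNA sample 5. The row of POLD3 is dim, within the lowest 5.92% of array rows by mean.

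The clamp and its loader had 3 genes below 0 and 3 above, with a median of -0.073. PCNA, the ring that holds polymerases on DNA and is a common marker of dividing cells, averaged 9.74 ± 0.13 in MTA2 siRNA samples and 9.67 ± 0.097 in control siRNA samples. The difference of 0.07 (interval -0.29 to 0.44) is the average of 2 rows that went opposite ways. The brighter row (NM_002592) read 12.01, 12.16 and 12.15 in MTA2 siRNA samples, against 12.54, 12.36 and 12.52 in control siRNA samples. These groups did not overlap, and this row differed by -0.36 (interval -0.77 to 0.04.) The dimmer row (NM_182649), within the lowest 2.79% of array rows by mean, read 7.47, 7.05 and 7.59 in MTA2 siRNA samples, against 6.64, 7.19 and 6.74 in control siRNA samples. It differed by 0.51 (interval -0.05 to 1.08.)

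RFC opens the clamp and places it on primed DNA, with RFC1 as its large subunit and RFC2 to RFC5 as the small ones. RFC5 read 9.67, 9.57 and 9.60 in MTA2 siRNA samples, against 9.74, 9.99 and 9.77 in control siRNA samples. Every MTA2 siRNA sample lay below every control, though sample 4 lay only 0.07 below control sample 1. The difference was -0.22 (interval -0.58 to 0.14), and -0.27 with dye as a block. Of its 4 rows 3 lay between -0.40 and -0.33, while the brightest differed by 0.18. In each of the 4 rows taken singly the groups overlapped.

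RFC3 read 9.18, 9.58 and 8.95 in MTA2 siRNA samples, against 9.61, 9.44 and 9.69 in control siRNA samples. Sample 5 lay within the controls, and the difference of -0.34 (interval -0.82 to 0.14) was -0.22 with dye as a block and -0.06 within Cy3. RFC1 read 9.16, 9.08 and 9.09 in MTA2 siRNA samples, against 8.84, 8.55 and 9.14 in control siRNA samples. The average of 0.26 (interval -0.19 to 0.71) held a brighter row at -0.16 and a dimmer one at 0.69. RFC4 differed by 0.12. RFC2 differed by -0.33 (interval -1.24 to 0.57.) Of its 5 rows the 2 brightest differed by -0.22 and -0.23, a pair of dimmer ones by 0.05 and 0.07, and the dimmest by -1.35, since it read 1.73 in MTA2 siRNA sample 4. Without that sample RFC2 differed by 0.11.

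In single-strand binding and Okazaki fragment maturation, 4 of 5 genes lay below 0, with a median of -0.12, and 0 had an unadjusted p under 0.05. RPA coats the exposed single strand. Its middle subunit RPA2 read 10.84, 10.74 and 10.26 in MTA2 siRNA samples, against 11.23, 10.62 and 11.08 in control siRNA samples. The Cy5 control lay among the MTA2 siRNA samples, and the difference of -0.36 (interval -0.92 to 0.20) was -0.41 within Cy3 and -0.07 within Cy5. RPA3 differed by -0.12, with 11.57, 11.02 and 11.05 in MTA2 siRNA samples and 11.17, 11.32 and 11.51 in control siRNA samples. The large subunit RPA1 differed by 0.09.

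FEN1, the nuclease that trims Okazaki flaps, differed by -0.01 (interval -0.62 to 0.60.) LIG1, the ligase that seals the fragments, read 7.99, 9.20 and 9.11 in MTA2 siRNA samples, against 9.42, 8.88 and 8.84 in control siRNA samples. Its difference of -0.28 (interval -1.12 to 0.56) rested on MTA2 siRNA sample 4, and it was 0.11 without that sample.

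Nucleotide synthesis held the member with the smallest p. RRM1, the large subunit of ribonucleotide reductase, which makes deoxyribonucleotides, read 10.92, 11.28 and 11.17 in MTA2 siRNA samples, against 11.82, 12.09 and 11.66 in control siRNA samples. The highest MTA2 siRNA sample lay 0.38 below the lowest control. The means were 11.12 ± 0.18 in MTA2 siRNA samples and 11.86 ± 0.22 in control siRNA samples (SD, n = 3 each). The difference was -0.74 (SE 0.19) (interval -1.17 to -0.30), or 0.601 times the control level with an interval of 0.443 to 0.814. It did not pass over all genes (limma adjusted p = 0.942, unadjusted p = 0.00537). It was -0.75 with dye as a block, -0.46 within Cy3 and -1.04 within Cy5, and between -0.83 and -0.62 with each sample left out.

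RRM2, the small subunit of the same enzyme and the one whose level follows S phase, read 11.23, 11.62 and 10.64 in MTA2 siRNA samples, against 11.84, 11.41 and 11.33 in control siRNA samples. The groups overlapped, and the difference of -0.36 (interval -1.03 to 0.31) was 0.04 within Cy3 and -0.48 within Cy5. Both of its rows gave about that value, -0.35 and -0.38. Thymidylate synthase (TYMS), which makes dTMP, averaged 11.01 ± 0.16 in MTA2 siRNA samples and 11.16 ± 0.21 in control siRNA samples and differed by -0.14 (interval -0.57 to 0.28.) Thymidine kinase TK1, the salvage enzyme of S phase, read 13.33, 13.00 and 13.46 in MTA2 siRNA samples, against 12.92, 13.23 and 13.04 in control siRNA samples. Its difference was 0.20 (interval -0.24 to 0.64) and 0.09 with dye as a block.

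Many members were read by more than 1 array row, each annotated to a RefSeq transcript, and these rows often did not go the same way. Of the 21 members with 2 or more rows, 5 had all rows lower (MCM3, MCM10, ORC3, RFC3 and RRM2), 4 all rows higher (ORC1, ORC4, GINS3 and RFC4), and 12 (57.1%) had rows of both signs. Over all genes with 2 or more rows that share was 56.8%. The rows of a member spanned a median of 0.47, and those of all such genes 0.37. The span was over 1 in 2 members, RFC2 and GMNN. Counted by row, 48 of 84 lay below 0, and 4 had an unadjusted p under 0.05 (3.67% of all rows), 1 each in GMNN, ORC3, RFC1 and RRM1. In 9 of 84 rows the groups did not overlap, 5 lower and 4 higher, where 8.83% of all rows did not overlap. The row lowest in adjusted p had 0.967.

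**Figure D3:**
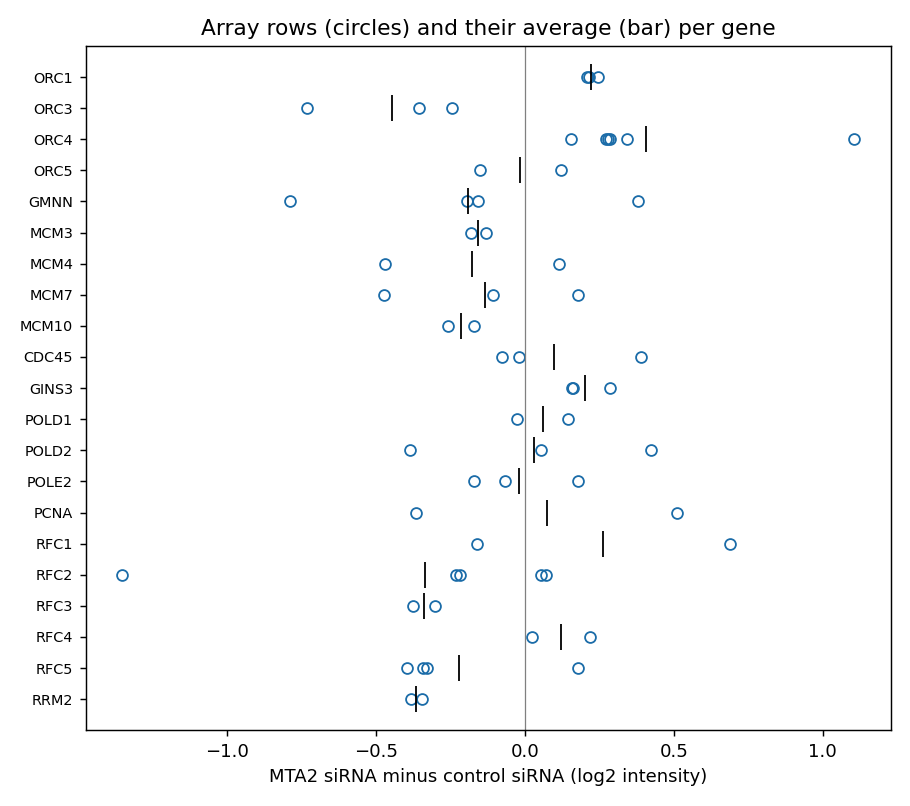
Difference between MTA2 siRNA and control siRNA samples (log2 intensity, x axis) for each array row (circles) and for their average (black bar) in the 21 genes with 2 or more rows. The rows of ORC1, MCM3 and RRM2 lie close together, while those of PCNA, RFC1, GMNN and POLD2 lie on both sides of 0.

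In the median, differences by dye were larger than those by siRNA. In a fit with both terms, the median size of the Cy5 minus Cy3 difference was 0.21 over the members, beside 0.17 for siRNA, and over all genes these were 0.25 and 0.16. For dye, 0 of 45 members passed an adjusted p of 0.05, and 6 had an unadjusted p under 0.05 (18.0% of all genes did). These were CDC45 (0.57), GINS1 (-1.32), POLA2 (-0.43), PRIM1 (0.72), POLD3 (-0.53) and POLE2 (0.46), 4 of them polymerase or primase subunits. Subunits of 1 enzyme went opposite ways, as PRIM1 was brighter and POLA2 dimmer in Cy5. With dye as a block 0 members were called for siRNA (lowest adjusted p = 0.872), and again 2 had an unadjusted p under 0.05 (4.96% of all genes), ORC3 and RRM1. Below 0 lay 28 members again (47.0% of all genes). The siRNA difference changed sign under the block in 8 members, CDC6, MCM5, CDC45, GINS1, GINS2, PRIM2, POLD2 and RPA1, whose differences without it ran from -0.33 to 0.10.

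**Figure D4:**
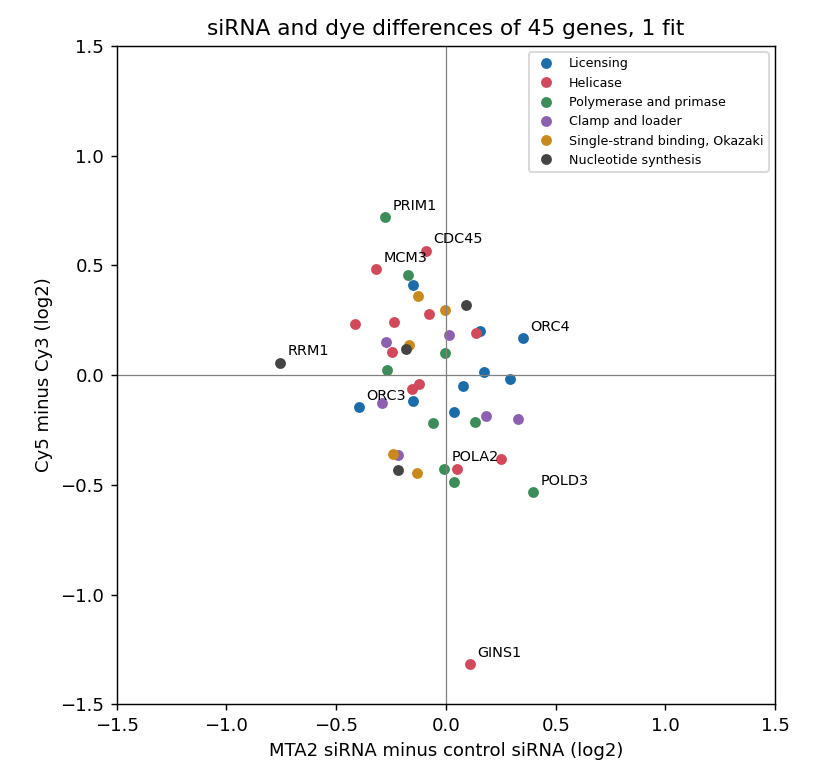
Difference between MTA2 siRNA and control siRNA samples (log2, x axis) against Cy5 minus Cy3 (log2, y axis) for the 45 genes in 1 limma fit with both terms, coloured by class. RRM1 lies far out along the siRNA axis at -0.75 and GINS1 along the dye axis at -1.32.

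Split by dye, 22 of 45 members (48.9%) had the same sign in both dyes, 13 lower and 9 higher, where 54.8% of all genes had the same sign. RRM1, ORC3, ORC2 and ORC4 were among those that agreed in sign. PRIM2 and ORC6 stood furthest on opposite sides, and 0 members had an adjusted p under 0.05 for an interaction of siRNA with dye (0.0% of all genes, 4.16% of them at an unadjusted p under 0.05 beside 2 members). Each dye holds 1 sample in 1 of the groups, so these values carry no replicate spread of their own in that arm.

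**Figure D5:**
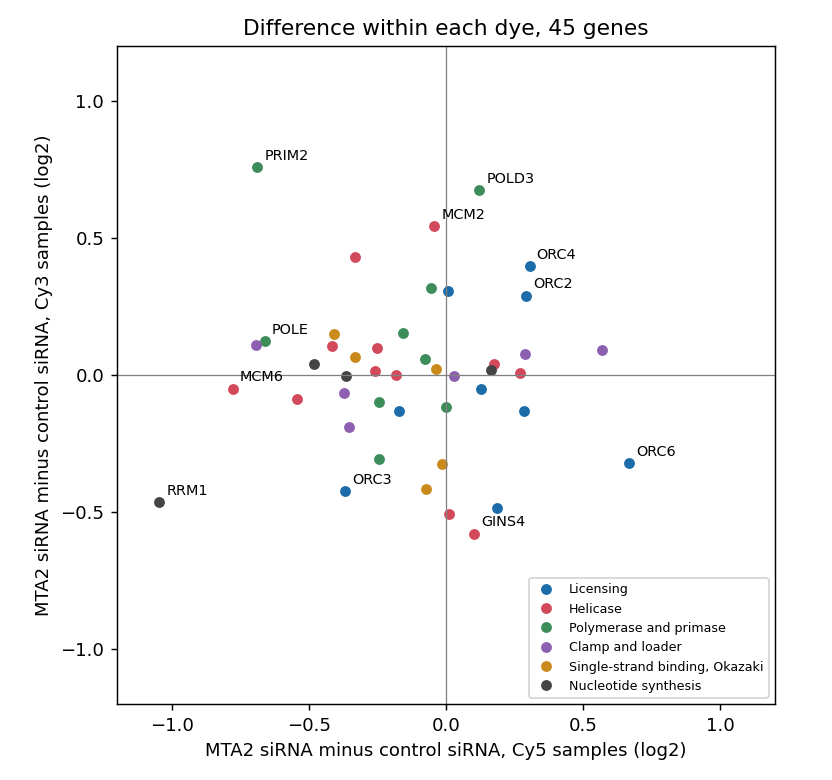
Difference between MTA2 siRNA and control siRNA samples within the 3 Cy5 samples (log2, x axis) and within the 3 Cy3 samples (log2, y axis) for the 45 genes, coloured by class. RRM1 and ORC3 lie below 0 in both, ORC2 and ORC4 above 0 in both, and 23 genes have opposite signs.

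The wider pathway was read from 4 further lists. Of 33 other fork and initiation factors 0 passed the test, with 14 below 0, 19 above and a median of 0.027. With dye as a block 19 lay below 0, with a median of -0.022. An unadjusted limma p under 0.05 was reached by 3 with dye as a block (4.96% of all genes) and by 0 without it (3.76%). Without dye in the fit, differences ran from -1.09 to 2.19. The smallest p belonged to RNASEH2A, a subunit of the nuclease that removes RNA primers, which read 11.01, 12.89 and 11.09 in MTA2 siRNA samples, against 13.07, 12.16 and 13.02 in control siRNA samples. The Cy3 samples of both groups lay between 12.89 and 13.07, and the difference of -1.09 (interval -2.35 to 0.17) was -0.16 within Cy3 and -1.11 within Cy5. CDC7, the kinase that fires origins, differed by -0.42, and by -0.22 without sample 4. WDHD1, which links polymerase alpha to the helicase, differed by -0.38, and by -0.19 without sample 4.

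Of 24 other nucleotide enzymes 0 passed, with 16 below 0 and a median of -0.12, but 10 below 0 and a median of 0.033 within Cy3. Of these 4 had an unadjusted p under 0.05, 3 lower and 1 higher, a share of 16.7% beside the 3.76% of all genes. With dye as a block 3 of the 24 did, beside 4.96% of all genes. DTYMK, the kinase that follows TYMS and TK1 on the way to dTTP, read 7.39, 7.49 and 7.02 in MTA2 siRNA samples, against 8.09, 7.92 and 7.79 in control siRNA samples. These are dim readings, well below the column medians of 10.44 to 10.45. Every MTA2 siRNA sample lay below every control, and the difference was -0.64 (interval -1.08 to -0.19.) ATIC, which completes purine synthesis, differed by -0.58 and UMPS, which makes UMP, by -0.70, both without overlap. UMPS differed by -0.16 within Cy3 and by -0.92 within Cy5. The higher gene, CAD, which starts pyrimidine synthesis, differed by 0.44. In the other 20 enzymes of the list the groups overlapped, while over all genes 9.48% did not overlap.

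Of 13 E2F and pocket protein genes 0 passed, with 6 below 0 and a median of 0.058, but 7 below 0 and a median of -0.034 with dye as a block. Within Cy3 the median was 0.092 and within Cy5 -0.15. TFDP1, the partner of E2F, differed by -0.42 (-0.23 without control sample 2), the repressor E2F8 by -0.54 (0.07 within Cy3) and E2F5 by -0.23. Of 10 proliferation markers 0 passed, with 5 below 0 and a median of -0.011. CCNB1 differed by -0.23 (interval -0.83 to 0.37), CDK1 by 0.14 (interval -0.31 to 0.59) and AURKA by 0.11 (interval -0.25 to 0.46). For all 10 the interval lay within a 2-fold change, as it did for 78.8% of all genes.

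The promoters were examined for the E2F motif that many of these genes are known to share. RefSeq windows from 250 bases before to 50 after the gene start (GRCh38.p14) were matched for 39 of the 45 members, with the first window listed taken per gene. GINS4, MCM4, MCM5, POLD3, RPA2 and RPA3 had none. The motif was searched on either strand as the letters TTGGCGC, as TTCCCGC in a second form and as TTCGCGC in a further form, and matches may overlap. It occurred in 26 of 39 windows (66.7%) and in 14.9% of the windows of 14062 genes on the array. All 6 clamp and loader genes held a match, as did 7 of 9 helicase genes, 5 of 8 polymerase genes, 4 of 9 licensing genes, 2 of 3 single-strand binding and Okazaki genes, and 2 of 4 nucleotide genes. Counting every listed window of a gene, 29 of 39 members (74.4%) and 18.0% of the array's genes held it. The members' windows were also richer in CpG, with a median of 30 against 22, and in G and C (65.0% against 63.0%).

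The CCAAT box, searched like the others on both strands, occurred in 56.4% of the members' windows and in 36.4% of the array's windows, members included. The TATA box (TATAAA) occurred in 5.13% and 9.38% of these windows in that order. TTTGAA, the core of the CHR element of later cell cycle genes, occurred in 1 member window (2.56%), that of RRM1, and in 11.9% of the array's windows. The reverse of CCAAT ends in the letters with which the first E2F form begins, so 1 stretch can hold both. Members with an E2F match had a median siRNA difference of -0.13 (17 of 26 below 0). Members without had 0.031 (6 of 13 below 0), and both are given as descriptions. This split used the first listed window only, while 29 of 39 members held a match in some listed window. It was not made within either dye, and within Cy3 the median over all 45 members was 0.016.

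Windows of 3 genes are shown with the E2F letters in capitals: those of RRM1 and ORC3, the members with an unadjusted p under 0.05, and that of MCM6, which held the most matches, 4 in 2 overlapping pairs.
RRM1, GRCh38.p14 chr11:4094435-4094734, plus strand: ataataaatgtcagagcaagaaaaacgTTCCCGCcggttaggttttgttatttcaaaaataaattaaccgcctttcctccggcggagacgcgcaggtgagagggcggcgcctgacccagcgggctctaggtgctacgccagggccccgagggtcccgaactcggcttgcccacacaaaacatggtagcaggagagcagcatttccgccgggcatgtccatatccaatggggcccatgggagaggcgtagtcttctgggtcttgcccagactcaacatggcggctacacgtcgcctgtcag
ORC3, GRCh38.p14 chr6:87589885-87590184, plus strand: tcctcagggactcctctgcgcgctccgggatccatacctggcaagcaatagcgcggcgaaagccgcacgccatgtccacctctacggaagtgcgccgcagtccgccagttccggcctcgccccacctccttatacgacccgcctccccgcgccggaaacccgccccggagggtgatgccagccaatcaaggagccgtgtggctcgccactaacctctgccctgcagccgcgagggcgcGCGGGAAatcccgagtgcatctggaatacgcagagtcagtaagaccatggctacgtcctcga
MCM6, GRCh38.p14 chr2:135876394-135876693, minus strand: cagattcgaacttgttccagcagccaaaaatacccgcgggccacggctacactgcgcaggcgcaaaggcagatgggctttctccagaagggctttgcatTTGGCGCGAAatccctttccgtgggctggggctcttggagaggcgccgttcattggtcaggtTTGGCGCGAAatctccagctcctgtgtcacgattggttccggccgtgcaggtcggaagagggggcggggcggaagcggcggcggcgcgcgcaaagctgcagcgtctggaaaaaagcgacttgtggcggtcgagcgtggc
A match is a description of these letters and shows no binding.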

How the data were processed

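RNA of 6 KYSE30 samples was measured on NimbleGen arrays scanned with a GenePix 4000B, per the labels' protocols. The authors deposited log2 intensities for 34558 array rows, with column medians of 10.44 to 10.45; how background was corrected or values normalised, and the build, is not given in the sources used here. The series matrix repeats the same values. Rows were assigned by the deposited symbol and averaged per symbol. Groups, as the sample titles give them, were compared by a linear model (limma 3.58.1, R 4.3.3, moderated by eBayes, two-sided) without covariate or filter, with p-values adjusted by Benjamini-Hochberg over all 19184 genes, and single genes with an exact permutation test. The fit was tested on simulated data whose changes were larger than any seen in the members, with no dye difference. That test therefore does not show how well changes of the members' size would be found. Alternatives covered normalisation, dye, rows, names, a filter on dim genes, variance model, weights and samples kept.

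The members and lists were chosen with earlier results of these data known. In each of 6 classes the 3 members with the smallest p, and every member at an unadjusted p under 0.05 or without overlap, were to be described in full, the other members by single values or ranges, and 3 genes of each other list. Some members beyond these (such as ORC1, ORC6, CDC6, MCM2, GINS1, PRIM2 and PCNA) are given by sample, chosen after their values were seen. CAD, and array rows given singly, were chosen after their values were seen. Arrays have no read depth, and the number of samples limits precision.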

Additional observations from a re-analysis of the deposited data

How the results depend on the processing

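No paired analysis was made, since the labels state no pairing. The sample numbers run from 1 to 6 and no number occurs in both groups. The count of members called stayed 0 in all 18 alternatives and at an adjusted p of 0.10 (lowest adjusted p 0.566, without MTA2 siRNA sample 5), as did the count for dye in the 8 alternatives run for it, and MTA2 stayed above control in all 18 alternatives. The count of members at an unadjusted p under 0.05, 2 as reported, was 1 within Cy3, 1 with the brightest row, 1 among genes above the median level, 1 with the median of rows (an alternative chosen after seeing the data) and 4 when every array row was fitted, and ran from 1 to 3 with each sample left out. It was 1 without control sample 1, without control sample 3, without MTA2 siRNA sample 4 and without sample 6. The filter at the median level leaves out the dimmer members, so values given for it cover fewer than the 45 members. The members' median difference was -0.093 as reported. It was 0.016 within Cy3, -0.027 among genes above the median level, -0.027 with array weights and -0.035 with the median of rows. With each sample left out it ran from -0.13 to -0.028. The cause was not tested.

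Of all 45 members, none of them called, 15 turned sign in the Cy3 samples alone, 12 in the Cy5 samples alone, 8 under the dye block and 7 when the brightest row was used. Among the 18 members and 15 other genes that the naming rule picks, the sign turned within Cy3 for POLE (0.12), LIG1 (0.067), RRM2 (0.040), E2F8 (0.070), CDK1 (-0.12) and CD3E (0.16). It turned within Cy5 for MCM10 (0.0095) and POLA1 (0.0011). With the brightest row it turned for RFC1 (-0.16), RFC5 (0.18), CDC7 (0.10), E2F8 (0.050) and E2F5 (0.18). With each sample left out, LIG1 ran from -0.50 to 0.11 and POLD3 from -0.052 to 0.48, turning without samples 4 and 5 in that order.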
